A study of Mus musculus with 6 samples.

Results

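The 10 genes described here encode the fast-fibre parts of the contractile apparatus and of its calcium supply: Tnni2, Tnnt3 and Tnnc2 (the fast troponins I, T and C), Mylpf and Myl1 (fast myosin light chains), Mybpc2 (fast myosin-binding protein C), Actn3 (alpha-actinin of fast Z-discs), Atp2a1 (the calcium pump SERCA1), Casq1 (fast calsequestrin) and Pvalb (parvalbumin). Their members were all H3K27ac peaks that the annotation of the peak tables assigned to one of these gene names, which gave 19 of 46988 peaks in control and 20 of 40721 peaks in detrained quadriceps. Of the 10 genes, 9 had at least 1 peak under their own name and Tnnt3 had none in either table.

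H3K27ac, acetylation of lysine 27 of histone H3, was profiled by chromatin immunoprecipitation sequencing (ChIP-seq) in quadriceps of wild type male C57BL/6J mice. The labels give the strain as C57BL/6 for the H3K27ac libraries and as C57BL/7 and C57BL/8 for the inputs, and they list the H3K27ac antibody for the inputs as well, so values over input rest on the titles. Control mice were sedentary and were housed without a running wheel, and detrained mice had run voluntarily on a wheel for several weeks before 72 hours of rest without it. Each group had 2 H3K27ac libraries, each from the muscle of 1 animal, and 1 library titled as input, the background for enrichment. The file columns call the control libraries C2 and C3 and the detrained libraries Ex1 and Ex2. Total tags ranged from 20805019 to 22400894 in the H3K27ac libraries, and the inputs held 10812470 (control) and 21298438 (detrained) tags. Listed peaks held 45.5% (C2) and 49.4% (C3) of the control tags and 46.9% (Ex1) and 44.7% (Ex2) of the detrained tags, so C3 stood highest. All 6 skeletal muscle markers examined (Ckm, Acta1, Des, Myod1, Mb and Pygm) had a transcript start inside a peak in both tables, and neither liver marker had a peak over its gene body. The tissue is bulk muscle, in which a smaller share of one fibre type and less acetylation per nucleus cannot be told apart.

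Muscle contracts when calcium released from the sarcoplasmic reticulum binds troponin C, which releases troponin I from actin and lets tropomyosin, to which troponin T anchors the complex, shift on the thin filament and expose the sites for myosin. SERCA1 pumps the calcium back, calsequestrin stores it and parvalbumin buffers it in the cytosol, and fast and slow fibres express separate genes for most of these proteins. H3K27ac marks active promoters and enhancers, and highly expressed identity genes of a tissue often carry it over long stretches. Mouse quadriceps consists mainly of fast fibres.

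Promoter sequence was at hand for 7 of the 10 genes (8 promoters, since Pvalb has an upstream and a downstream start), each spanning 250 bases before to 50 bases after a RefSeq start on GRCm38, which is mm10. The 4 promoters below are shown because they hold the E-box CAGCTG, a core bound by myogenic basic helix-loop-helix factors, which is in capitals. All 4 lie inside the broad H3K27ac peaks described next.
Myl1, chr1:66945007-66945306, minus strand: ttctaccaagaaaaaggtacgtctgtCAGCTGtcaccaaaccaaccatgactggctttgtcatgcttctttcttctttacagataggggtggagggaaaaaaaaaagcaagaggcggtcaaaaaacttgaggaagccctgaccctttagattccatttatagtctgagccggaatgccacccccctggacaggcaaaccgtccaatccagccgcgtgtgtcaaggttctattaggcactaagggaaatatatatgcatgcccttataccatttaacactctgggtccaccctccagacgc
Casq1, chr1:172219846-172220145, minus strand: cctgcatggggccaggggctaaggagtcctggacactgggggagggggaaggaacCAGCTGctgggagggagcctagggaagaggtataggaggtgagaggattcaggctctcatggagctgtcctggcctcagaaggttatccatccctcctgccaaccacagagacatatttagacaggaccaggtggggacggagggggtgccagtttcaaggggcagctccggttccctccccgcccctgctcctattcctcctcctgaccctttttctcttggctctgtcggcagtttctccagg
Atp2a1, chr7:126463024-126463323, minus strand: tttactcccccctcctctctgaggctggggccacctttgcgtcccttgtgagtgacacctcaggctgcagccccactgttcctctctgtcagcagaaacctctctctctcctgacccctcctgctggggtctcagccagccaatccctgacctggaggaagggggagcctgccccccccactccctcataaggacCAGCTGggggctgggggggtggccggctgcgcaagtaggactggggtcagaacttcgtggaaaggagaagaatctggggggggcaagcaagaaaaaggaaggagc
Mylpf, chr7:127211358-127211657, plus strand: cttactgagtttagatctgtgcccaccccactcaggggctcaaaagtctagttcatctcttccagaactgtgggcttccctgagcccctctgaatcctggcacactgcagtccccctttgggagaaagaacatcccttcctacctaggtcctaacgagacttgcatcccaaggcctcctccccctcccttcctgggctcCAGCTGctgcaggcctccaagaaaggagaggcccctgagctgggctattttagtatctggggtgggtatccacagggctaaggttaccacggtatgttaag

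The first base of the CAGCTG match lay 224 bases before the start in Myl1, 195 in Casq1, 55 in Atp2a1 and 51 in Mylpf. These letters, which read the same on both strands, occurred in 4 of 8 member promoters and in 16.3% of the 32851 promoters of the table. The looser E-box CANNTG, which contains CAGCTG, was found in 7 of 8 member promoters and in 72.3% of all. On either strand, the MCAT letters CATTCC occurred in Myl1 and Mybpc2 (14.7% of all promoters) and the TATA box letters TATAAA in Myl1 (13.6%). The MEF3 letters TCAGGTT, the ERR site letters AAGGTCA, the MEF2 site and the CArG box had no match in any of the 8, against 4.07%, 4.72%, 0.557% and 1.63% of all promoters. CpG content, as the observed over expected ratio, was below the median of all promoters (0.384) in 6 of 8 and ranged from 0.089 at Mylpf to 0.732 at the downstream Pvalb start.

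Every one of the 10 genes had its transcription start inside a long H3K27ac peak in both tables. The start lay in a peak of at least 5 kb for 10 of 10 genes in control and 10 of 10 in detrained muscle, whereas 7.19% and 7.39% of 21840 protein-coding genes had such a peak. A start inside a peak of any length was common, at 51.6% of genes in control and 51.5% in detrained muscle. The 5 kb limit was set after the lengths had been seen. In control muscle, the start peaks ranged from 5638 bp at Actn3 to 32854 bp at Tnnt3, and in detrained muscle from 6317 bp at Tnni2 to 33744 bp at Tnnt3. None of these start peaks ranked below the 94.2nd percentile of length or the 96.8th percentile of pooled tags in its table. Their signal was 8.93 to 14.7 times the input in control and 8.68 to 17.1 times in detrained muscle, where the median peak stood at 4.75 and 4.61 times. Input tags per kb at these peaks ranged from 6.08 to 10.7 in control and from 6.43 to 10.3 in detrained muscle, against medians of 5.49 and 6.11 over all peaks.

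**Figure D1:**
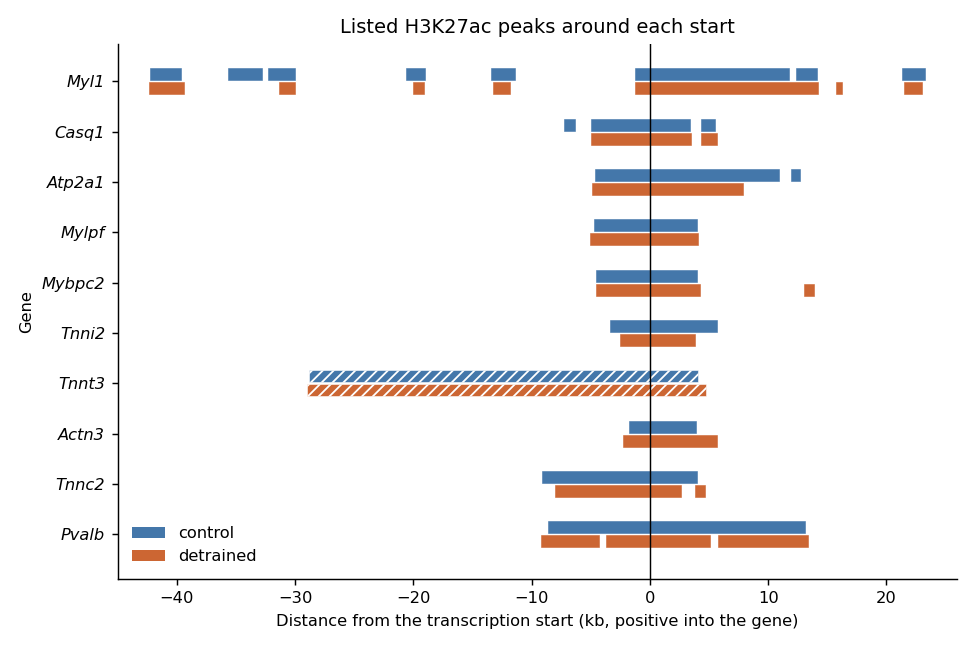
Listed H3K27ac peaks of each gene by distance from its transcription start (kb, positive into the gene) in control and detrained muscle. Hatched bars at Tnnt3 are the domain that the tables name after Lsp1, and further peaks over the Tnnt3 body are not drawn. Each gene has a long peak across its start in both groups, Myl1 has further peaks upstream, and the single control peak at Pvalb is listed as 3 peaks in detrained muscle.

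The fast troponins showed 3 different layouts. Tnni2 (chr7:142441808-142444410, plus strand) had 1 peak in each table, chr7:142439103-142448128 in control and chr7:142439950-142446267 in detrained muscle, and both covered 100% of the gene. Tnnc2 (chr2:164777161-164779967, minus strand) was likewise covered over 100% of its length, by a peak of 13072 bp (control) or 10648 bp (detrained) that also held the start of its neighbour Snx21. A second Tnnc2 peak of 842 bp was listed in detrained muscle only, with a pooled signal of 16.5 tags per 10000000 total tags. Tnnt3 (chr7:142498836-142516009, plus strand) had its start at the downstream end of a domain that the tables assign to Lsp1 (chr7:142470005-142502859 in control, chr7:142469842-142503586 in detrained muscle). This domain was the 8th longest peak of the control table and the 9th longest of the detrained table, and its pooled signal was 2916.9 tags per 10000000 in both. It began 28831 bp before the Tnnt3 start and ended 4023 bp inside the gene in control, and these distances were 28994 and 4750 bp in detrained muscle. Because it also covers a start of Lsp1, its tags cannot be divided between the genes. With this domain included, 5 peaks covered 51.8% of the Tnnt3 body in control and 2 peaks covered 33.7% in detrained muscle.

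Among the thick-filament genes, Mylpf (chr7:127208890-127214298, plus strand) lay entirely within its single peak, whose length was 8674 bp (control) or 9118 bp (detrained) and which also held a start of Tbc1d10b. Myl1 (chr1:66924295-66945404, minus strand) had 8 peaks in control and 7 in detrained muscle, more than any other member. Its start peak extended 1256 bp upstream and 11771 bp into the gene in control, and 1258 and 14245 bp in detrained muscle. A control peak of 1740 bp in an intron, which was listed apart from the start peak, fell inside the longer start peak of detrained muscle. Intergenic Myl1 peaks were centred 12404, 19826, 31181, 34235 and 40972 bp upstream of the start in control, and all but the one at 34235 bp had a counterpart in detrained muscle. No protein-coding gene lies between the Myl1 start and the farthest of them. Mybpc2 (chr7:44501699-44524656, minus strand) had a start peak over 17.3% of the gene in control, and in detrained muscle a further intronic peak of 904 bp with 11.1 tags per 10000000.

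Actn3, which crosslinks thin filaments at the Z-disc, had 1 peak per table (chr19:4874029-4879667 in control, chr19:4872201-4880207 in detrained muscle), over the first part of the gene and a start of Zdhhc24. Of the calcium genes, Atp2a1 (chr7:126445858-126463108, minus strand) had a start peak that measured 15521 bp (control) or 12790 bp (detrained). A weak intronic Atp2a1 peak of 763 bp with 19.9 tags per 10000000 was listed in control only. Casq1 (chr1:172209894-172219868, minus strand) had a start peak of 8311 and 8469 bp and an intronic peak of 1154 and 1337 bp in control and detrained muscle. A further 884 bp peak 6799 bp upstream of Casq1, inside an intron of Atp1a4, was listed in control only. Pvalb (chr15:78191114-78206400, minus strand) was covered almost end to end by 1 control peak of 21762 bp, while the detrained table split the same stretch into peaks of 7541, 8745 and 4922 bp. The 3 detrained Pvalb peaks together spanned 21208 bp and held 1048 tags per 10000000, against 1211 in the control peak.

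Levels are given next as H3K27ac tags per kb of peak per 10000000 total tags, so that genes with peaks of different length can be compared. At the Myl1 start peak this level was 105 and 149 in the control libraries (C2, C3) and 109 and 99.1 in the detrained ones (Ex1, Ex2). Casq1 read 104 and 128 in the control libraries (C2, C3) and 109 and 97.6 in the detrained ones (Ex1, Ex2). For both genes the detrained values lay within or just below the range of the control libraries, and C3 alone was high. Atp2a1 read 95.4 and 124 in the control libraries (C2, C3) and 136 and 131 in the detrained ones (Ex1, Ex2). Tnni2 read 81.9 and 97.3 in the control libraries (C2, C3) and 118 and 117 in the detrained ones (Ex1, Ex2). At these 2 genes both detrained libraries exceeded both control libraries. Mylpf read 84.5 and 106 in the control libraries (C2, C3) and 82.2 and 84.3 in the detrained ones (Ex1, Ex2). Actn3 read 77.6 and 99.1 in the control libraries (C2, C3) and 61.7 and 59.4 in the detrained ones (Ex1, Ex2). Both detrained libraries were the lower ones at these 2 genes, by a wide margin at Actn3 and a narrow one at Mylpf. Mybpc2 read 78.5 and 109 in the control libraries (C2, C3) and 90.8 and 85.4 in the detrained ones (Ex1, Ex2). Tnnc2 read 74.5 and 91.0 in the control libraries (C2, C3) and 89.4 and 80.7 in the detrained ones (Ex1, Ex2). Both genes had detrained values between those of the control libraries. At the domain over the Tnnt3 start, the level was 83.1 and 94.6 in the control libraries (C2, C3) and 86.3 and 86.5 in the detrained ones (Ex1, Ex2). Pvalb had the lowest control level, with 49.5 in C2 and 62.0 in C3, and the central of its 3 detrained peaks, the one over the start, read 66.3 in Ex1 and 63.1 in Ex2. Over all its detrained peaks, which span nearly the same stretch as the control peak, Pvalb read 49.8 (Ex1) and 49.1 (Ex2), and the groups overlapped.

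**Figure D2:**
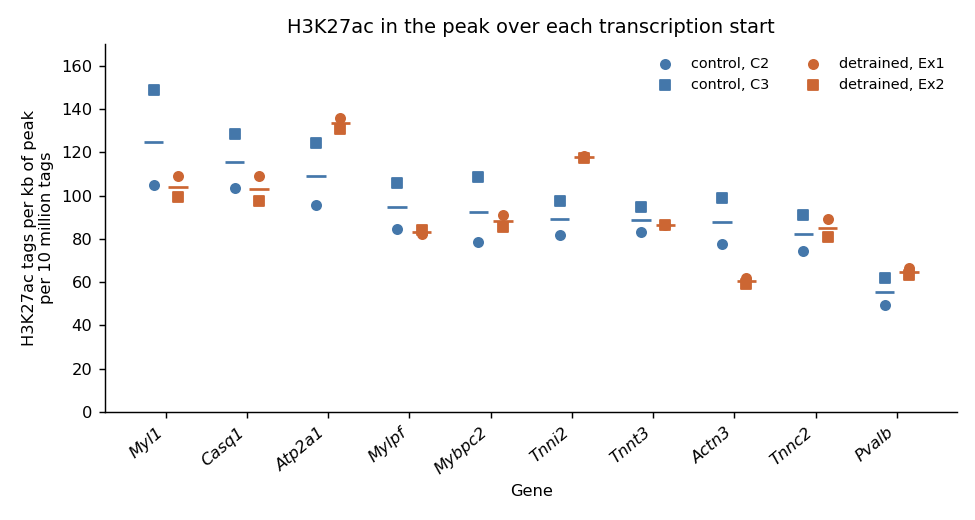
H3K27ac tags per kb of peak per 10000000 total tags in the peak over each gene's start, with 1 point per library (C2, C3, Ex1 and Ex2 as the file columns name them) and a line at the geometric mean of the 2 libraries of a group. C3 lies above C2 at all 10 genes, and the detrained libraries lie above both control libraries at Atp2a1 and Tnni2 and below both at Mylpf and Actn3; at Pvalb the detrained points are the central 8745 bp of 3 peaks against a control peak of 21762 bp.

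In control muscle the genes ranked, from the highest group mean, Myl1, Casq1, Atp2a1, Mylpf, Mybpc2, Tnni2, Tnnt3, Actn3, Tnnc2 and Pvalb. The library ranges of neighbours in this order overlapped except between Tnnc2 and Pvalb. In detrained muscle the order was Atp2a1, Tnni2, Myl1, Casq1, Mybpc2, Tnnt3, Tnnc2, Mylpf, Pvalb and Actn3. There the library ranges separated Atp2a1 from Tnni2, Tnni2 from Myl1, Casq1 from Mybpc2, Mylpf from Pvalb and Pvalb from Actn3, while the remaining neighbours overlapped. The place of Pvalb rests on its central detrained peak alone, and over all 3 its 49.4 tags per kb lay below the 60.5 of Actn3. By the density of its highest peak, the median member with a peak under its name stood at the 87.4th percentile of genes in control and at the 85.3rd in detrained muscle. C3 exceeded C2 at 19 of 19 member peaks in control, with a median difference of 0.34 on the log2 scale at the 14 shared ones, whereas C3 was the higher library at 56.9% of all control peaks. The gap was not limited to the members. Other contractile and calcium-handling genes with peaks in both tables, described below, showed it per kb covered, all but Mybph (33.4 in C2, 29.8 in C3).

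To ask whether the marks differed after training and rest, control and detrained peaks were paired where they overlapped one to one over at least 50% of each, which gave 14 member pairs among 26422 pairs. Each table had its own normalisation, and the groups were therefore compared by value alone. With 2 libraries against 2, an exact two-sided permutation test could not have gone below p = 0.333. Over the 14 pairs the median change, as detrained minus control log2 tags per kb, was -0.11, beside -0.03 over all pairs. The mean level of the 14 peaks was 6.02 ± 0.24 (SD, n = 2) in control and 5.98 ± 0.02 (SD, n = 2) in detrained muscle on the log2 scale, a difference smaller than the spread between the control libraries. Both detrained libraries lay on one side of both control libraries at 8 of 14 pairs, beside 48.5% of all pairs. They were lower at 4 pairs (27.2% of all pairs) and higher at 4 pairs (21.3%), and 0 of the 14 differed by 2-fold or more, beside 20 of all 26422 pairs.

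The 4 higher pairs were the start peaks of Tnni2 (0.40 on the log2 scale) and Atp2a1 (0.29) and the Myl1 peaks 31181 bp (0.53) and 12404 bp (0.24) upstream. The 4 lower pairs were the start peaks of Actn3 (-0.54) and Mylpf (-0.18), the intronic Casq1 peak (-0.47) and the Myl1 peak 40972 bp upstream (-0.40). The groups overlapped at Mylpf when libraries were scaled to the tags in listed peaks (-0.13) or centred on the median of all pairs (-0.16), while the Myl1 peak 12564 bp downstream then became higher without overlap. The split was 3 lower and 5 higher under both, beside 22% and 27.8% of all pairs for the first and 24.1% and 24.3% for the second. At the Myl1 peak 31181 bp upstream, the level was 42.3 (C2) and 57.6 (C3) in control and 77.4 (Ex1) and 65.4 (Ex2) in detrained muscle. At the one 40972 bp upstream it was 54.1 and 63.7 in the control libraries (C2, C3) and 42.2 and 47.3 in the detrained ones (Ex1, Ex2). Per kb, these Myl1 peaks differed in opposite directions. The start peaks of Casq1, Myl1, Mybpc2 and Tnnc2 had overlapping groups, with log2 differences of -0.16, -0.27, -0.07 and 0.04. Pvalb had no one-to-one pair.

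Density is tags divided by called length, so these differences depend on where the peak edges were called as well as on the tags. Tnni2 was called over 9025 bp in control and 6317 bp in detrained muscle while its pooled tags were 807 and 742 per 10000000, so that the tags per kb were higher and the tags per peak lower in detrained muscle. Atp2a1 held 1700 and 1704 tags per 10000000 in its longer control and shorter detrained peak. Actn3 held 497 and 484 tags per 10000000 in peaks of 5638 and 8006 bp. In tags per peak, the log2 change was -0.12 at Tnni2, -0.24 at the Myl1 peak 31181 bp upstream, -0.24 at the one 12404 bp upstream, -0.25 at Tnnc2 and -0.08 at the Myl1 peak 12564 bp downstream, all opposite in sign to the change per kb, and 5 rather than 8 of the 14 pairs had groups that did not overlap. All 5 were lower in detrained muscle and 0 were higher, beside 28.8% and 24.6% of all pairs, in place of 4 and 4 per kb. The 4 upstream Myl1 pairs were then all negative, with -0.28 at 40972 bp and -1.11, over 2-fold, at 19826 bp.

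**Figure D3:**
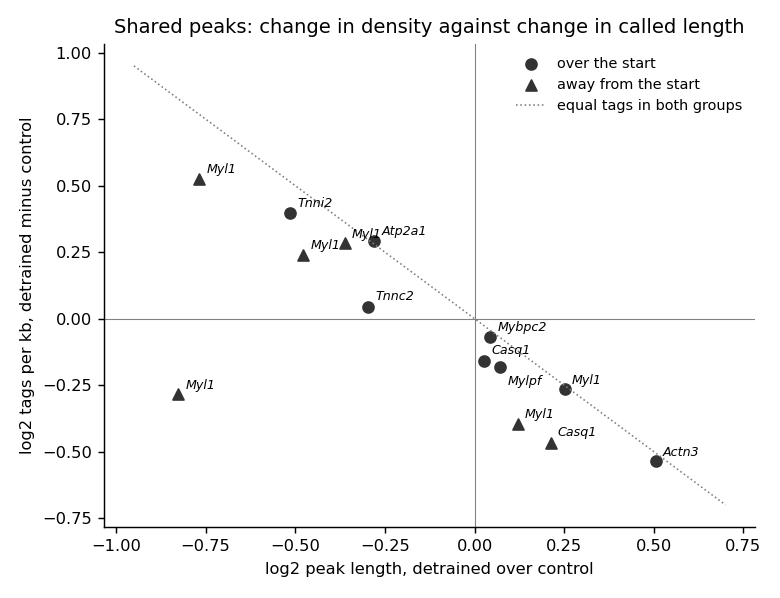
Change in tags per kb (detrained minus control, log2) against the change in called peak length (log2) for the 14 shared member peaks, circles over the start and triangles elsewhere. On the dotted line both groups hold the same tags: Atp2a1 and Actn3 lie close to it, and the Myl1 peak 19826 bp upstream lies farthest below.

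Summed over all peaks of a gene, tags were fewer in detrained than in control muscle for 9 of 9 genes with peaks, beside 57.6% of 13524 genes with a peak in both tables. The summed change ranged from -0.23 on the log2 scale at Tnnc2 to -0.003 at Atp2a1, with a median of -0.12, beside -0.05 over all genes. The 2 detrained libraries were both below both control libraries at Tnnc2 and Pvalb (2 of 9 genes, beside 35.2% of all genes), and no gene was above (24.3%). Tnnc2 held 974 and 1190 summed tags per 10000000 in the control libraries (C2, C3) and 968 and 876 in the detrained ones (Ex1, Ex2). Pvalb held 1077 and 1349 in the control libraries (C2, C3) and 1056 and 1041 in the detrained ones (Ex1, Ex2). In both genes all detrained values lay below C2, with Ex2 of Tnnc2 the farthest, and C3 was the highest library. Without C3 the count of genes with fewer tags fell from 9 to 3 of 9 and their median change became 0.05. Scaled to the tags in listed peaks, 6 of 9 genes had fewer tags, beside 49.4% of all genes, with a median of -0.07. Per kb covered, 2 genes were higher (Tnni2 and Atp2a1, beside 25.5% of all genes) and 2 lower (Actn3 and Mylpf, beside 28.1%), with a median of -0.08 over the 9.

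The 9 genes took up 0.118% of the listed peak length in control but 0.215% of the tags in peaks, and 0.112% and 0.204% in detrained muscle. By summed tags, Myl1 stood highest, at 2267 per 10000000 in control, and Actn3 lowest, at 497. The members' median lay at the 93.2nd percentile of the genes of the control table and at the 92.2nd of the detrained table.

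**Figure D4:**
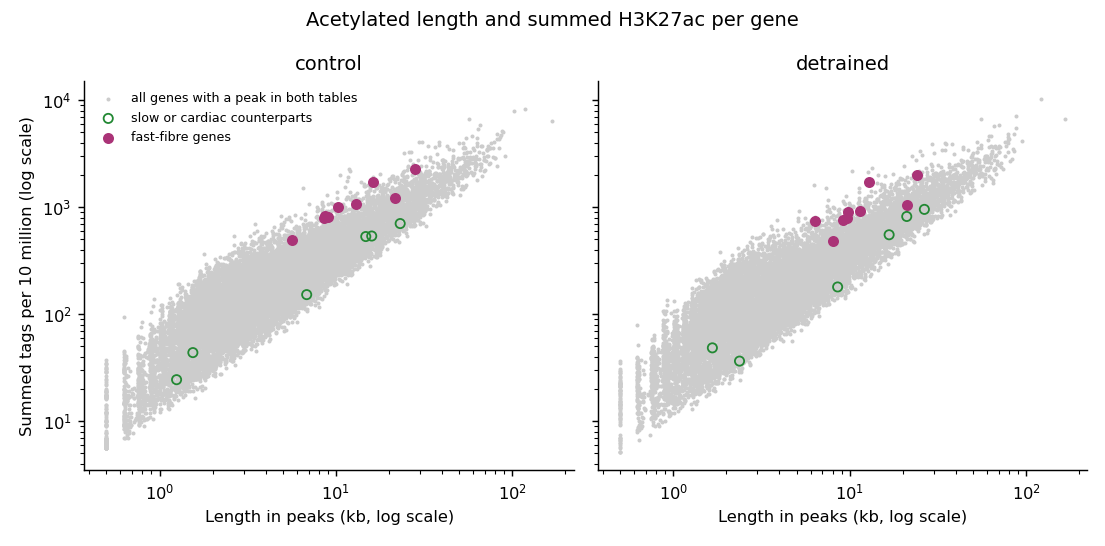
Summed H3K27ac tags per 10000000 against the length in peaks (kb) for each gene with a peak in both tables, both axes on a log scale. The 9 fast-fibre genes lie toward the top of the genes of their length in both groups, and the 6 slow or cardiac counterparts with peaks in both tables lie lower for their length.

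Per kb of their strongest peak, the slow or cardiac counterparts with a peak over the gene body were less acetylated than the fast gene they were paired with. Across pairs the levels overlapped, since Atp2a2 (73.6) and the peak over Tnni1 (72.8) stood above Pvalb (55.4) in control. The pairwise order did not hold for summed tags in each pair: Actn2 held 537 (control) and 818 (detrained) tags per 10000000 over 5 peaks, against 497 and 484 in the single Actn3 peak, and Mybpc1 held 702 and 953 over 6 peaks, against 797 and 786 at Mybpc2. Of 9 counterparts (Tnni1, Tnnt1, Tnnc1, Myl2, Myl3, Atp2a2, Casq2, Actn2 and Mybpc1), 4 in control and 5 in detrained muscle had a start inside any peak, and 1 and 2 had a start inside a peak of at least 5 kb. These shares were not below those of all protein-coding genes for the 5 kb peaks (7.19% and 7.39%) and were near them for peaks of any length (51.6% and 51.5%). Tnnc1, the slow and cardiac troponin C, had no peak under its name or over its body in either table. Myl2, the slow light chain opposite Mylpf, had 1 peak under its name but none over its body. Myl3, the slow light chain opposite Myl1, read 19.2 and 20.3 tags per kb in the control libraries (C2, C3) and 14.8 and 16.0 in the detrained ones (Ex1, Ex2), so that the strongest Myl1 peak was 6.54 times as dense on average (2.71 ± 0.21 on the log2 scale, SD, n = 4 libraries). The ratio was 4.51 for Casq1 over Casq2 and 2.09 for Mybpc2 over Mybpc1. For Atp2a1 over Atp2a2, the pump SERCA2 that other cell types also use, it was 1.81 over all libraries, with log2 ratios of 0.40 (C2) and 0.73 (C3) in control and 1.10 (Ex1) and 1.19 (Ex2) in detrained muscle. For Actn3 over Actn2 the ratio was 1.40 on average, and in Ex1 the log2 difference was only 0.05, but in control the strongest peak over Actn2 was one named after its neighbour Mtr. The strongest peaks over Tnni1 in both tables, and over Tnnt1 in control, were likewise named after the neighbours Phlda3 and Ppp1r12c, and the ratios of Tnni2 and Tnnt3 to them were 1.40 and 3.07. The Tnnt3 value is that of the Lsp1-named domain, which lies mostly upstream of Tnnt3. In each of the 7 pairs with values, that of Tnnt3 through this domain, the value of the fast gene was higher in 4 of 4 libraries. No test was made of these differences, since the pairs come from the same libraries.

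**Figure D5:**
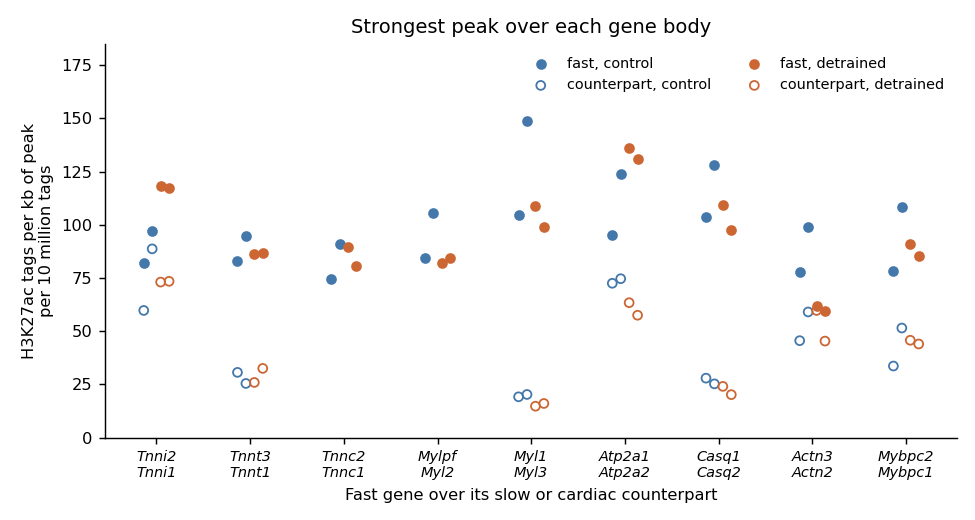
H3K27ac tags per kb per 10000000 total tags in the strongest peak over the body of each fast gene (filled) and of its slow or cardiac counterpart (open), with 1 point per library. The fast gene lies above its counterpart in each library of the 7 pairs with both values (for Tnnt3, the domain named after Lsp1), and Tnnc1 and Myl2 have no peak to plot.

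Between the groups, the summed tags of 6 counterparts differed in the other direction from those of the fast genes. The contrast between the 2 lists was not tested, and which fibres express each counterpart was not examined. Tnni1 had a peak under its name in control only, Tnnt1 in detrained muscle only and Tnnc1 in neither. Peaks covered 7.51% of the Tnni1 body in control and 1.51% in detrained muscle, against 9.04% and 19.7% of the Tnnt1 body. All 6 counterparts with peaks in both tables held more summed tags in detrained muscle. Over all genes, 57.6% held fewer, or 49.4% when scaled to the tags in listed peaks. Of these 6 counterparts, 5 had groups that did not overlap (beside 24.3% of all genes). The change ranged from 0.06 on the log2 scale at Atp2a2 to 0.61 at Actn2, with a median of 0.34. The peaks of 6 of 6 counterparts also covered more sequence in detrained muscle, from 15974 to 21024 bp at Actn2 and from 23166 to 26456 bp at Mybpc1. The share of all genes with more sequence covered was not counted. Over all genes with a peak in both tables, the median covered length was 3883.5 bp in control and 3787 bp in detrained muscle. Per kb covered, 3 of 6 counterparts were higher in detrained muscle, with a median of -0.02, and 2 of the 5 with higher summed tags, Myl3 and Atp2a2, were lower without overlap. Without C3, 5 of 6 held more summed tags, with a median of 0.43. Values at markers of other cells differed between the groups too: the summed signal at the starts of 4 endothelial markers was 743 in control and 936 in detrained muscle (Pecam1 134 and 247, Cdh5 180 and 289, Tek 239 and 209, Kdr 191.0 and 192), that of 3 fibroblast markers was 1191 and 1364, and 0 of 4 immune markers in control and 3 of 4 in detrained muscle had a start inside a peak. Of the immune markers, Cd68 had a peak over its body in both groups, with 79.1 tags per kb in control and 65.9 in detrained muscle, and the start peak of Itgam held 16.2 tags per 10000000. The 6 skeletal muscle markers summed to 4779 and 4809, with Mb at 741 and 1223 and Pygm at 1202 and 791. The 2 satellite cell markers summed to 119 and 145, the 1 of 3 nerve markers with a start peak held 252 in both groups, and 0 of 3 adipocyte markers had a start inside a peak in either. Their part in these differences was not tested.

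Of 27 other contractile and calcium-handling genes, 26 had a start inside a peak in each table, all but Myh2, and 20 in control and 22 in detrained muscle had one inside a peak of at least 5 kb. Their median start-peak density was 81.6 tags per kb in control and 76.0 in detrained muscle, beside 90.8 and 87.3 for the 10 fast genes. For the counterparts with such a peak it was 31.2 (4 genes, control) and 44.9 (5 genes, detrained). These are different sets, since Mybpc1, at 44.9, had a start peak in detrained muscle only. Of the 26 with peaks under their names in both tables, 19 had fewer summed tags in detrained muscle, beside 57.6% of all genes, with a median change of -0.06 on the log2 scale, beside -0.05. The junctophilin Jph2, which ties the sarcoplasmic reticulum to the cell membrane, differed by -0.37 and the alpha-subunit of the voltage sensor, Cacna1s, by -0.32. Among those higher without overlap, the myosin heavy chains Myh2 and Myh1 differed by 1.36 and 0.41 and the M-band gene Myom1 by 0.22. Per kb covered, Jph2 (-0.34) and Myh2 (-0.26) were lower without overlap. The groups overlapped per kb at Cacna1s (-0.10), Myh1 (-0.14) and Myom1 (0.10). Peaks named Myh2 covered 2496 bp in control and 7669 bp in detrained muscle. The largest difference upward, 3.34 at Myh4, came with a start peak that was named after another gene in control and after Myh4 in detrained muscle. The summed tags under the name Myh4 therefore did not compare the same peaks. The peak over the Myh4 start had a lower pooled signal in detrained muscle, 800.4 over 10265 bp, than in control, 1256.9 over 17925 bp. Per kb, this start peak read 69.7 in control and 78.0 in detrained muscle.

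The 5 genes outside the list that lay nearest to the members' median in summed tags, covered length and highest density over both tables were Fyco1, Pacsin3, Adamts1, Hspb3 and Miga1, at Euclidean distances of 0.14 to 0.30 on the log2 scale among 13515 genes. Fyco1 held 1005 tags per 10000000 over 11211 bp in control, beside member medians of 1006 tags and 10349 bp. Hspb3, a small heat shock protein, read 101 tags per kb in its highest control peak, beside 92.3 for the members.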

How the data were processed

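H3K27ac ChIP-seq peak tables of control and detrained quadriceps were used, 1 table per group. According to the labels and the study's methods, the authors used Bowtie for alignment to mm10 and HOMER to call peaks on both libraries of a group together against input, testing enrichment with DESeq2. The deposited signal of a peak is the pooled tags of both libraries per 10000000, and the deposited log2 values are regularized log2 tags per library, normalised to total tags within a table. Columns of fold change and p-values against input were not used.

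Pooled tags were divided between the libraries in proportion to 2 to the power of the log2 value times total tags, and expressed per kb of peak (End minus Start) with a pseudocount of 0.5 tags. The regularized values shrink library differences of weak peaks. Shared peaks overlapped one to one over at least 50% of each. Peaks were set against GENCODE vM21 genes and protein-coding transcript starts, and promoters came from RefSeq on GRCm38. Scripts used Python 3.11.15 with pandas 2.3.3 and were tested on simulated data.

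Named genes were the 10 members, 9 counterparts, 27 other contractile and calcium genes, and the 5 genes nearest to the members. Cell type markers and neighbouring genes that share or name a peak were named as well. The members and lists were chosen with earlier results of these data known. Alternatives covered peak length, overlap, normalization, centring, stricter peaks (signal of at least 30), pseudocount and leaving out each library. Tags per library were estimated in this way rather than counted, so no counting intervals are given.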

Additional observations from a re-analysis of the deposited data

How the results depend on the processing

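The median change at shared member peaks stayed within the library spread (SD) of its reported value of -0.11 under peak-length, overlap, normalization, centring, stricter-peak and pseudocount alternatives, but ranged from -0.3079 to 0.0808 when single libraries were left out; it was positive only without C3. The count of 8 pairs without overlap became 5 in tags per peak and 4 when pairs had to overlap over 80% of both peaks (8 pairs left), and ranged from 10 to 13 without single libraries, where 1 library makes overlap less likely. The gene-sum median of -0.08 ranged from -0.24 to 0.07 without single libraries. In tags per peak, the start peak of Tnni2 (-0.1167), the Myl1 peak 31181 bp upstream (-0.2416) and that 12404 bp upstream (-0.2378) reversed, and in summed tags so did Tnni2 (-0.1167) and Atp2a1 (-0.0029). Values whose groups overlapped per kb also changed sign, at the start peak of Tnnc2 (0.0443 to -0.2516, then lower without overlap), the Myl1 peak 12564 bp downstream (0.2827 to -0.0797) and the summed tags of Myl1 (0.0461 to -0.1747); the construction removes the called length. The median percentile of the members' highest peak among genes was 87.4 in control and 85.3 in detrained muscle by density, 98.1 and 97.2 by pooled tags, 98.1 and 97.2 by the deposited log2 value, and 80.5 in detrained muscle over gene bodies. The alternatives for the summed-tag directions were chosen after seeing the data. Fast genes with fewer tags ranged from 3 to 9 of 9 without single libraries, and counterparts with more tags were 3 of 6 per kb covered. Other alternatives kept the counts within 1.5 times.

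No paired analysis was possible, since the groups are different mice and no label pairs their libraries. The titles number the libraries 1 and 2 in each group, while the columns name the control ones C2 and C3. No test was made. With 2 libraries per group, the gap between C2 and C3 limits the comparison, and the effect of depth was not measured.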
